A study of Mus musculus with 3 samples.

Results

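The suppressor of cytokine signalling (SOCS) family comprises 8 genes, *Socs1* to *Socs7* and *Cish*. These genes were followed in a list of 19301 predicted m6A sites from RAW 264.7 cells, an established mouse macrophage line. A site was given to a member when it lay inside the gene's span on the same strand (GENCODE M21, GRCm38) and was placed on the transcript with the longest coding sequence (CDS). Of the 8 members, 4 held at least 1 site and together carried 26 sites. Of all protein-coding genes, not limited to expressed ones, 23.1% (5080 of 21951) held a site. With only 8 members the family's share is imprecise, and no difference from that value is claimed. *Socs5* held 11 sites, *Socs3* 7, *Socs6* 4 and *Socs7* 4. *Socs1*, *Socs2*, *Socs4* and *Cish* held none, and no member had a site on the opposite strand.

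The cells were untreated and all libraries belong to 1 condition, with 3 biological replicates. Each library was made by miCLIP2 from 1 µg of poly(A)+ RNA with 6 preamplification cycles and a rabbit antibody against m6A. The series text calls the line human whereas the organism label gives mouse, and all 26 member sites read as A in the mouse genome. RAW 264.7 is a transformed line, and the labels name no cytokine treatment.

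SOCS proteins are feedback inhibitors of the JAK-STAT pathway. Cytokine receptors activate JAK kinases, JAKs phosphorylate STAT transcription factors, and STATs induce SOCS genes whose products then silence the receptor. Every SOCS protein has an SH2 domain that binds phosphotyrosine and a C-terminal SOCS box that recruits elongins and a cullin to ubiquitylate the bound partner. N6-methyladenosine (m6A) is a mark laid on mRNA mainly by the METTL3 and METTL14 methyltransferase, in many cases at the motif DRACH (D is A, G or T; R is A or G; H is A, C or T), and it is known for its influence on mRNA decay and translation. In macrophages and T cells, m6A on SOCS transcripts has been studied as a control of cytokine sensitivity.

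In miCLIP2, ultraviolet light crosslinks the antibody to RNA, and reverse transcription stops next to the crosslinked base. The m6Aboost model then scores each signal peak at an A, and the list holds sites with a score above 0.5. The score describes how the model called a site. It is not a methylation level. The list is pooled over the replicates and holds no read counts, so neither the depth behind a site nor its variation over replicates is known. Intervals below are 95% Wilson intervals and cover counting error only, and sites of 1 transcript are not independent. No test was made, and every comparison is a description. Because m6Aboost reads the bases around a site and its transcript region, shares by motif and by region depend in part on the model. Transcript levels were not measured in the file, so methylation below detection and low expression cannot be told apart for a member without a site.

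The sites that the results turn on are shown as windows of 21 bases, read 5′ to 3′ on the strand of the gene in GRCm38, with the 5 bases of the motif in capitals and the A called by the model at their centre. The first 4 windows come from the 3′ UTR of *Socs3* (minus strand), where the sites lay close together. They span chr11:117967255-117967275, chr11:117967179-117967199, chr11:117967146-117967166 and chr11:117967145-117967165.
Socs3 site 3: tgacaagcGGACTctcccctc
Socs3 site 5: tgaacttaGAACTgcaagggg
Socs3 site 6: ttcccgctGGAACttgtttgc
Socs3 site 7: tcccgctgGAACTtgtttgcg
Sites 6 and 7 are neighbouring adenines. The second of them sits in DRACH and had the higher score, while the window of the first, GGAAC, is not a DRACH motif. The next 3 windows come from *Socs5* (plus strand), at chr17:87134843-87134863, chr17:87134858-87134878 and chr17:87135435-87135455. Sites 8 and 9 are coding and site 11 is the other family site outside DRACH.
Socs5 site 8: ttgctcagGGACTctgcacag
Socs5 site 9: gcacaggaGGACTacctcttc
Socs5 site 11: ggctgtgaCAACTgagggagg
The last window is the coding site of *Socs7* (plus strand, chr11:97363137-97363157) with the highest score of that gene.
Socs7 site 4: ccgctgcaGGACTtggtccct

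**Figure D1:**
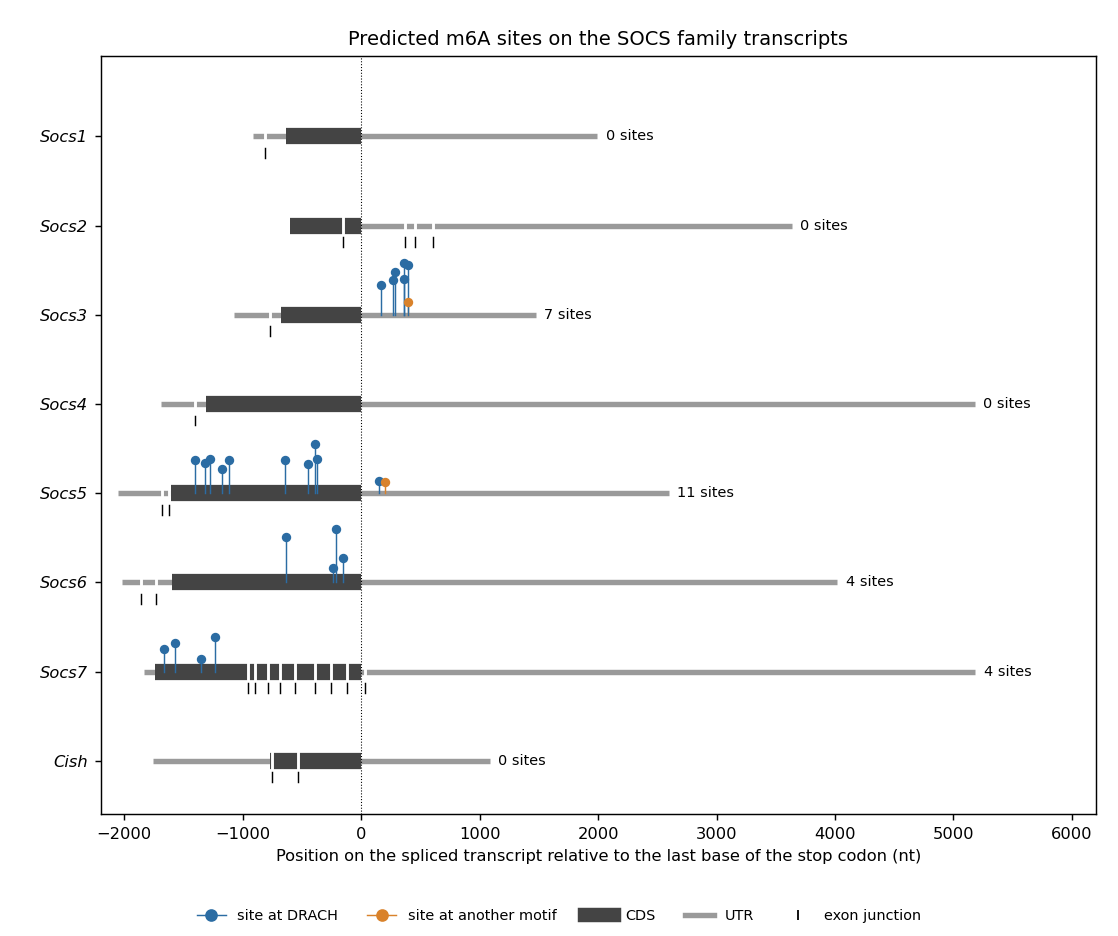
Spliced transcripts of the 8 SOCS genes, drawn to scale and aligned at the stop codon (x axis, nt from its last base). Dark blocks are CDS, grey lines are UTRs and ticks are exon junctions. Each lollipop is a listed site and its height rises with the m6Aboost score. *Socs3* carried its 7 sites in the 3′ UTR, *Socs6* and *Socs7* carried 4 coding sites each, and *Socs5* carried 9 coding sites and 2 past the stop codon.

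*Socs3* restrains signalling by interleukin 6 and related cytokines through binding to the gp130 receptor chain and to JAKs. It is encoded on the minus strand of chromosome 11 (117966079 to 117970047), and its transcript of 2552 nt has 2 exons, with the whole CDS of 678 nt in exon 2. All 7 sites lay in the 3′ UTR, from 167 to 398 nt downstream of the stop codon. They covered a stretch of 232 nt that began at 11.3% and ended at 27.0% of the 3′ UTR length. No site was listed in its CDS or 5′ UTR.

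In transcript order the *Socs3* sites lay 167, 268, 288, 357, 364, 397 and 398 nt past the stop codon. Their scores, in the same order, were 0.695, 0.748, 0.826, 0.753, 0.919, 0.517 and 0.898. The scores were thus high on both sides of the weakest site, which is the first A of the adjacent pair. Of the whole list, 94.5% of sites scored lower than site 5 and 90.9% scored lower than site 7, but only 3.35% scored lower than site 6. The last 6 sites fell within 131 nt. Only 21 genes with a site (0.413%) held 6 or more sites in any window of 150 nt of the spliced transcript. When sites within 5 nt were counted as 1, *Socs3* had 5 in such a window and 74 genes (1.46%) had as many.

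From the second site to the last, a stretch whose ends are themselves listed sites, the *Socs3* transcript holds 8 DRACH motifs, of which 5 were listed. Over the whole 3′ UTR, 6 of 25 were listed (24.0%, 11.5 to 43.4). None of the 15 in the CDS was listed, which leaves an upper limit of 20.4%. None of the 16 motifs downstream of site 7 was listed either.

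*Socs5* and *Socs4* form a pair of relatives with long N-terminal regions, and both have been linked to turnover of the epidermal growth factor receptor. *Socs5* occupies bases 87107679 to 87137839 of chromosome 17 on the plus strand. Its transcript of 4648 nt has 3 exons, and exon 3, of 4218 nt, holds the whole CDS of 1611 nt and the 3′ UTR. With 11 sites, it stood among the 284 genes (5.59% of genes with a site) that held 11 or more. The median gene with a site held 3 (quartiles 1 and 5) and the highest count was 68.

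The coding sites of *Socs5* fell into an early and a late group. With codons counted from the start codon, 5 sites lay at codons 68, 97, 112, 145 and 165. Their scores were 0.731, 0.697, 0.736, 0.64 and 0.725. The other 4 lay at codons 323, 387, 407 and 412, with scores of 0.731, 0.693, 0.89 and 0.738. The late group lies toward the C-terminus of the protein, which bears the SH2 domain and SOCS box. Site 8, at codon 407, was the only *Socs5* site above the upper quartile of the whole list, and 89.2% of listed sites scored lower. No site was listed in the 474 nt between the groups.

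The 3′ UTR of *Socs5* held 2 sites, 146 and 201 nt past the stop codon. Their scores of 0.511 and 0.509 lay just above the limit of the list and were the lowest of the 26. Of the 35 DRACH motifs in the *Socs5* CDS, 9 were listed (25.7%, 14.2 to 42.1). Of the 58 in its 3′ UTR, 1 was listed (1.72%, 0.305 to 9.14). *Socs5* and *Socs3* thus had a like share of DRACH motifs listed, in different regions of the transcript.

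**Figure D2:**
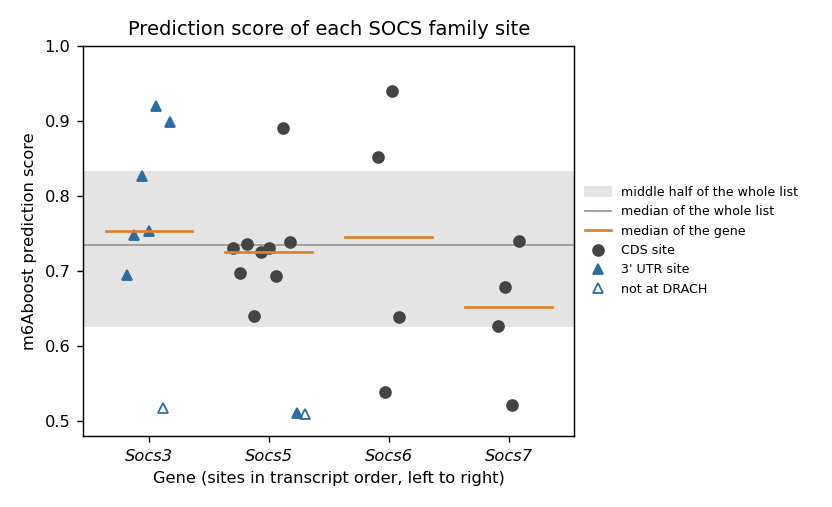
The m6Aboost score (y axis, no unit) of each of the 26 sites, by gene and in transcript order. Orange lines are gene medians, the grey band spans the quartiles of the whole list (0.627 to 0.832) and the grey line its median of 0.734. The medians were 0.753 for *Socs3*, 0.725 for *Socs5*, 0.745 for *Socs6* and 0.652 for *Socs7*. Of the 26 sites, 5 lay above the band and 6 below it.

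*Socs7* and *Socs6* are relatives that bind components of insulin receptor signalling. *Socs7* is a plus-strand gene of chromosome 11 (97362551 to 97398542) and has 10 exons in a transcript of 7015 nt. Its 4 sites all fell in exon 1, a coding exon of 873 nt, at codons 25, 55, 129 and 169. Their scores were 0.626, 0.678, 0.521 and 0.74. Codons this early lie in the N-terminal part, ahead of the SH2 domain.

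The other exons of *Socs7* were empty of listed sites. Exon 1 has 13 DRACH motifs and 4 were listed (30.8%, 12.7 to 57.6). The 8 internal exons, of 65 to 169 nt, hold 17 DRACH motifs, and the last exon, of 5154 nt, holds 94. None of these was listed. The sites were 276 to 707 nt away from the nearest exon junction. The site nearest a junction was also the one with the highest score.

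*Socs6* spans bases 88665224 to 88927481 of chromosome 18, minus strand, and its transcript of 6036 nt has 3 exons, with the whole CDS of 1602 nt in exon 3. On this transcript all 4 sites were coding, at codons 323, 454, 462 and 484, and their scores were 0.852, 0.538, 0.939 and 0.638. The score at codon 462 was the highest of the family, above 97.1% of the list, while its neighbour 24 nt upstream scored near the limit. All 4 sites lay at DRACH. The study kept supported transcripts and took the longest where they overlap, without stating how length was measured. On the longest supported transcript by genomic span, which is 1 reading of that rule, these 4 sites lay outside the exons. Of the DRACH motifs in the *Socs6* CDS, 4 of 34 were listed (11.8%, 4.67 to 26.6). None of the 96 in the 3′ UTR of 4019 nt was listed, with an upper limit of 3.85%.

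*Socs1*, an inhibitor of JAKs that holds interferon signalling in check, had no listed site. It is a minus-strand gene of chromosome 16 (10782240 to 10785536), and its transcript of 2908 nt holds 49 DRACH motifs, 40 of them in the 3′ UTR. *Socs4*, on chromosome 14 from 47276931 to 47296102 (plus strand), had no site in 6877 nt with 143 DRACH motifs, the most of any member. *Socs2*, which curbs growth hormone signalling, had none on chromosome 10 from 95385362 to 95417180 (minus strand). Its longest-CDS transcript of 4242 nt, annotated as incomplete at the 5′ end, holds 96 DRACH motifs. *Cish*, a STAT5 target that binds activated cytokine receptors, had none on chromosome 9 from 107296026 to 107302784 (plus strand), where its transcript of 2850 nt holds 55.

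The members without a site still held motifs, 343 DRACH motifs beside 400 in the members with sites. Of these 400, 24 were listed (6.0%, 4.06 to 8.77). GGACT, the DRACH motif with the most sites in the family, was listed at 7 of 20 occurrences in the members with a site. The members without a site hold 10 occurrences, which by the grouping cannot be listed. Over all 8 members GGACT was listed at 7 of 30 occurrences (23.3%, 11.8 to 40.9). For genes with a site it was 3608 of 21214 (17.0%), a value inside the interval. For the members without a site, the nearest listed site on the strand lay 23432 nt (*Socs4*) to 231515 nt (*Cish*) outside the gene. For the members with a site, the nearest site outside the gene lay 33789 nt (*Socs7*) to 3714086 nt (*Socs6*) away.

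**Figure D3:**
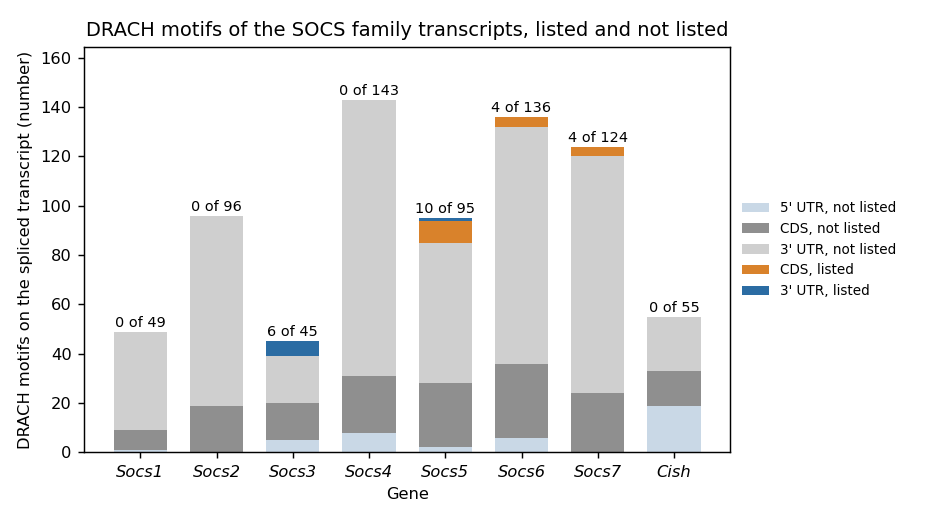
DRACH motifs on the spliced transcript of each member (y axis, number), split by region and by whether the A was listed. The label above a bar gives listed of all motifs. *Socs3* had 6 of 45 and *Socs5* 10 of 95, whereas *Socs4* had 0 of 143.

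Over all 8 transcripts, 24 of 743 DRACH motifs were listed (3.23%, 2.18 to 4.76). Over all genes with a site the share was 4.62% (4.56 to 4.69). In the CDS, 17 of 176 motifs were listed for the family (9.66%, 6.12 to 14.9), beside 4.55% for genes with a site. In the 3′ UTR it was 7 of 526 (1.33%, 0.646 to 2.72), beside 4.97%. These family shares include the 4 members without a site, which genes with a site by definition do not.

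By region, 17 of the 26 sites lay in the CDS (65.4%, 46.2 to 80.6) and 9 in the 3′ UTR (34.6%, 19.4 to 53.8). The values set beside these count a site once for each protein-coding gene that holds it, which gave 20035 site and gene pairs from 19180 sites. Among these pairs, 49.8% were coding and the 3′ UTR held 42.1%, values inside both intervals. On the longest-CDS transcripts no member site lay in a 5′ UTR or an intron. On the longest supported transcripts by genomic span the coding share was 50.0%, without the *Socs6* sites. Only 3 sites lay within 200 nt of the stop codon (11.5%, 4.0 to 29.0), beside 32.3% of the 18835 pairs that lay in exons of the chosen transcripts, called exonic pairs below. These were *Socs3* site 1, *Socs5* site 10 and *Socs6* site 4. The share depended on the window. Within 400 nt it was 53.8% for the family and 48.3% for exonic pairs, and within 100 nt it was 0.0% and 19.2%. Of the 56 DRACH motifs that the 8 transcripts hold within 200 nt, 3 were listed (5.36%, 1.84 to 14.6), beside 12.7% for genes with a site, a value inside the interval.

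Exon structure was described next, a property singled out after the values were seen. The CDS lay in 1 exon in 5 members (*Socs1*, *Socs3*, *Socs4*, *Socs5* and *Socs6*), as it did in 5.63% of genes with a site and in 16.3% of all protein-coding genes. The last exon held 22 of 26 sites (84.6%, 66.5 to 93.8), beside 68.4% of exonic pairs, a value inside the interval. The remaining 4 sites were those of *Socs7*. Sites lay in 1 exon of each member that held any: 2240 nt in *Socs3*, 4218 nt in *Socs5*, 5750 nt in *Socs6* and 873 nt in *Socs7*. With each exon counted once per site, so that *Socs5* weighed most, the median was 4218 nt, beside 1431 nt for exonic pairs. The median distance to the nearest junction, also over sites of these few exons, was 1075.5 nt, with a minimum of 216 nt. Over the 18239 exonic pairs on transcripts with a junction the median was 323 nt.

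By motif, 24 of 26 sites lay at DRACH (92.3%, 75.9 to 97.9), and 92.0% of the 20035 pairs did. GGACT held 7 sites (26.9%, 13.7 to 46.1) and GAACT held 6 (23.1%). Over all pairs these motifs held 19.2% and 13.1%. The 2 sites outside DRACH were *Socs3* site 6 and *Socs5* site 11, which also scored among the lowest of the family.

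The median score of the 26 sites was 0.728 (quartiles 0.639 and 0.752, SD 0.127). The median of the whole list was 0.734. Only 6 member sites scored 0.8 or more, and the next lower score was 0.753. The 6 were spread over *Socs3* (sites 3, 5 and 7), *Socs6* (sites 1 and 3) and *Socs5* (site 8), and no *Socs7* site was among them.

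**Figure D4:**
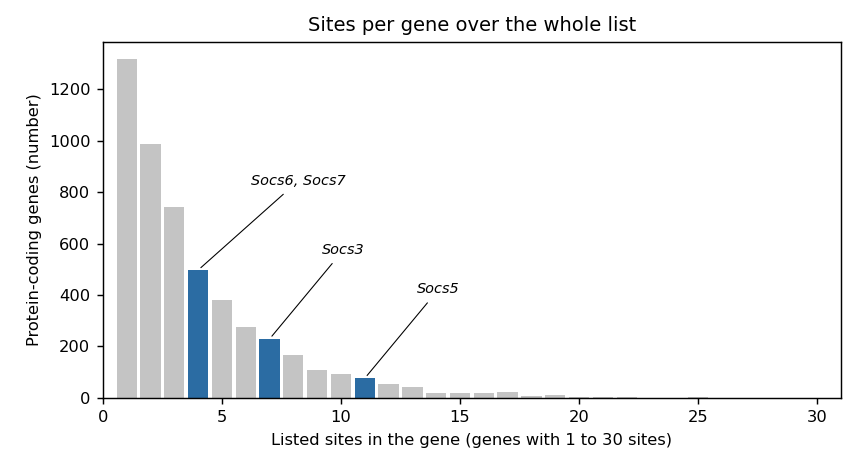
Number of protein-coding genes (y axis) by the number of listed sites they hold (x axis, to 30). The bars that contain a SOCS gene are blue. *Socs6* and *Socs7*, at 4 sites, lay just above the median of 3 over genes with a site, and *Socs5*, at 11, in the tail; 6 genes with more than 30 sites are not shown.

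Relatives within the family differed in their sites. *Socs4* and *Socs5* share 55.9% of 429 aligned residues, yet *Socs5* held 11 sites and *Socs4* none. Of the 9 coding sites of *Socs5*, 7 fell in the aligned part, 6 of them at the same residue as in *Socs4* and with an A at the same base. Only 1 of these, at codon 387 (*Socs4* codon 289), also reads DRACH in *Socs4*, and it was not listed there. Of the 24 aligned *Socs5* coding DRACH motifs that were not listed, 6 read DRACH in *Socs4*.

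*Socs6* and *Socs7* share 38.8% of 448 aligned residues, so their alignment is less certain. None of their 8 sites fell on a DRACH motif of the partner, and each lay at least 194 codons from the partner's nearest site. *Socs1* and *Socs3* share 38.2% of 173 aligned residues. The listed sites of *Socs3* were all in the 3′ UTR, so no coding position could be compared. *Socs2* and *Cish*, at 51.0% of 151 aligned residues, had no site to compare.

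Of 88 other genes in 6 lists around the pathway, 33 held a site and 55 did not, with 147 sites in all. These counts are descriptions, as the lists were drawn up with results of these data known. The JAK kinases held 1 site, in the 3′ UTR of *Jak1* with a score of 0.927, and *Jak2* and *Jak3* held none. Among the STAT factors, 3 of 7 held sites. *Stat6*, the mediator of interleukin 4 signals, held 8 with a mean score of 0.806. *Stat3*, which carries interleukin 6 and interleukin 10 signals, held 1 with a score of 0.528.

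Of 28 cytokine receptor chains, 10 held a site (35.7%). *Il10ra*, the ligand-binding chain of the interleukin 10 receptor, held 18 with a mean score of 0.729, of which 14 were coding. *Ifnar2*, of the type I interferon receptor, held 11 (mean 0.813), and *Il6ra*, of the interleukin 6 receptor, held 11 (mean 0.779). *Il10ra* thus exceeded every SOCS gene in its number of sites.

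Of 13 other inhibitors of the pathway, 9 held a site (69.2%). They were led by *Ptpn11*, which encodes the phosphatase SHP2 and held 9 sites (mean 0.784), all in the 3′ UTR. *Sh2b3*, the adaptor LNK, held 7 (mean 0.722) and *Ptpn1*, the phosphatase PTP1B, held 5 (mean 0.801). Of the 9 subunits of the SOCS box ubiquitin ligase and its neddylation machinery, only *Ube2f* held sites (3, mean 0.812), and the elongin genes *Elob* and *Eloc* held none. Of 27 other SOCS box proteins, 9 held a site (33.3%), with 8 in *Asb6* (mean 0.674), 6 in *Rab40c* (mean 0.722) and 3 in *Spsb3* (mean 0.819).

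**Figure D5:**
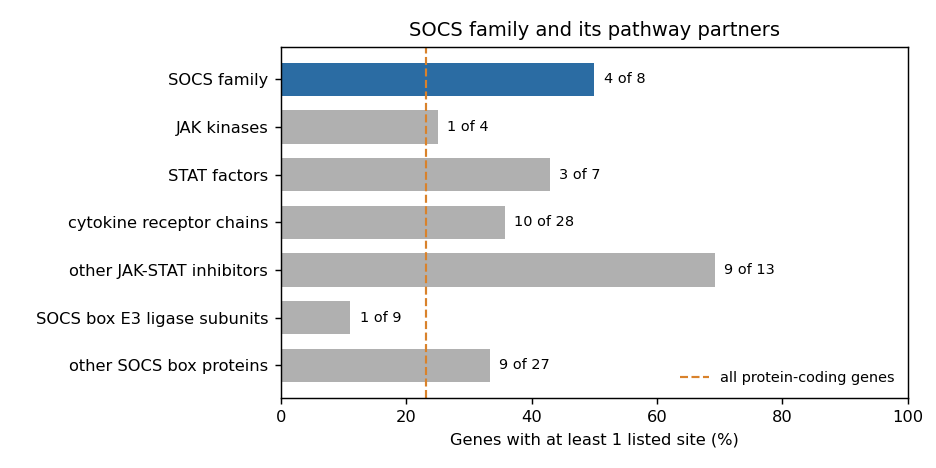
Share of genes with at least 1 listed site (x axis, %) for the SOCS family and 6 lists of pathway genes. Labels give genes with a site of all genes. The dashed line marks the 23.1% of all protein-coding genes, not limited to expressed ones. The SOCS family had 4 of 8, the other inhibitors 9 of 13 and the ubiquitin ligase subunits 1 of 9.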

How the data were processed

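The authors mapped the miCLIP2 reads of 3 replicates to GRCm38 with STAR 2.7.3a and removed duplicates with UMI-tools 1.0.0, per the labels. They set aside reads with C-to-T transitions, called PureCLIP peaks in each replicate and kept peaks found in at least 2 replicates. The deposited values are m6Aboost prediction scores of peaks at A, above 0.5, in 1 list pooled over the replicates. No counts or coverage per site were used here, so depth is unknown and no test across replicates was made.

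Positions were read from a 0-based start and are given 1-based. Genes came from GENCODE M21; the authors used M23 of the same build. Each gene was placed on the transcript with the longest CDS, ties going to the longest spliced one, and distances count from the last base of the stop codon. Motifs are the 5 genomic bases centred on the site. Proteins translated from the CDS were aligned globally (BLOSUM62, gap opening 10, extension 0.5). Transcript placement was tested on simulated positions. Python 3.11.15, pysam 0.24.0, Biopython 1.88, statsmodels 0.14.6 and matplotlib 3.10.9 were used.

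All 8 members are named, and from each pathway list the 3 genes holding the most sites are given, the mean score deciding ties. The values of 1 gene that this rule names are not reported here. Members and lists were chosen with earlier results of these data known. Alternatives were minimum scores of 0.7 and 0.9, near sites collapsed, a 1-based start, RRACH as motif, other transcripts, other stop codon windows, sites in no other gene and RefSeq gene spans.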

Additional observations from a re-analysis of the deposited data

How the results depend on the processing

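With a minimum score of 0.7, 14 sites in the same number of members (4) were left. All were at DRACH (100.0%), none lay within 200 nt of the stop codon (0.0%), and 1.88% of DRACH motifs were listed. With a minimum of 0.9, 2 sites were left, in 2 members (*Socs3* and *Socs6*). Both were at DRACH (100.0%), both were in the last exon (100.0%), none was near the stop codon (0.0%), the median score was 0.929, and 0.269% of DRACH motifs were listed. The share near the stop codon was 0.0% with a window of 100 nt and 53.8% with 400 nt. When the list was taken to start at base 1 (1-based), 3.85% of member sites read DRACH and 4 of 26 read A, against 26 of 26 with a 0-based start. By gene, a minimum of 0.7 left 5 sites in *Socs3*, 6 in *Socs5*, 2 in *Socs6* and 1 in *Socs7*, and a minimum of 0.9 left 1 each in *Socs3* and *Socs6* and 0 in *Socs5* and *Socs7*. Among the other 31 values over the whole family, shares stayed inside the interval of the main share and counts changed by at most 1.5 times. Median scores among them moved by less than the SD of the member scores (0.127). On the longest supported transcripts by genomic span the coding share was 50.0%, since the *Socs6* sites lay outside the exons of its transcript. RefSeq spans, added after the data were seen, gave the same 26 sites and 4 genes. Leaving out a replicate was not possible, as the list is pooled. No paired analysis was possible because all replicates share 1 score. The absence of depth limits every count: a gene with few reads may lack a site for that reason, which was not tested.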

Other observations

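Coding sites were also read by their place in the codon, a measure taken up after the values were seen. Of the 17 coding sites of the family, 11 lay at the second base (64.7%, 41.3 to 82.7), 4 at the third base (23.5%) and 2 at the first (11.8%). Over the 9894 coding pairs of a site and a gene on transcripts with a complete CDS, 49.0% lay at the second base, 26.5% at the third and 24.5% at the first. The DRACH motifs in the CDS of the 7 members with a complete CDS had their A at the second base in 49.7% of cases, a share inside the interval of the family's sites. In *Socs5*, 7 of the 9 coding sites were at the second base, with codon 68 at the third and codon 145 at the first. In *Socs7*, codons 25 and 55 carried the site at the third base, codon 129 at the first and codon 169 at the second.

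Per length of spliced transcript, *Socs3* held 2.74 sites per kb and *Socs5* held 2.37. *Socs6* held 0.663 and *Socs7* held 0.57.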
